A study of Homo sapiens with 4 samples.

Results

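Accessibility at 8 genes of the EGR, NR4A and KLF families was examined in TMD8 cells with silenced IRF4. Each interval of the count files (a merged peak of open chromatin) was given to the protein-coding gene whose body held its midpoint. Where no body did, it went to the closest gene end up to 100 kb away, and distances below run from the midpoint to that end. Position alone leaves unknown which genes an interval acts on. This gave 51 intervals of 73135 in all: 3 at EGR1, 4 at EGR2, 3 at EGR3, 11 at NR4A1, 3 at NR4A2, 5 at NR4A3, 5 at KLF2 and 17 at KLF6. All 51 passed the filter on low counts.

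The assay was ATAC-seq, where a transposase inserts sequencing adapters into DNA that nucleosomes leave free. TMD8 is an established cell line of diffuse large B cell lymphoma, labelled as the ABC (activated B cell-like) type. The 4 libraries comprised 2 from cells with a short hairpin RNA (shRNA) against IRF4, called shIRF4, and 2 from control cells, which the design text describes as carrying a scrambled shRNA. The library names write siIRF4, and the titles and design text were followed here. All 4 came from this 1 line, and nothing in the labels says that the 2 libraries of a group came from separate cultures, so p-values measure the spread between these libraries, which may be technical. IRF4 is a transcription factor of activated B cells and plasma cells on which lymphomas of this type depend.

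The EGR proteins are zinc finger transcription factors, and the NR4A proteins are orphan nuclear receptors that act without a known hormone ligand. Both families are immediate early genes: in B cells they are transcribed within minutes of antigen receptor signalling, without new protein synthesis. Promoter elements bound by SRF or CREB are among those through which this occurs, and they differ between the genes. KLF2 and KLF6 belong to the Krüppel-like zinc finger factors. KLF2 is known for keeping lymphocytes quiescent and controlling their trafficking, and it falls on activation, while KLF6 is itself an early response gene in many cell types.

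The libraries held 17954924 and 9112860 counts over all intervals in shIRF4 and 12152153 and 13609123 in control, so shIRF4 replicate 2 was the shallowest. Between replicates, chi-square per degree of freedom was 2.01 over all intervals and 2.11 over the members in shIRF4, and 1.04 and 1.10 in control, where 1 would be sampling noise alone. B cell markers had gene-end intervals (within 1 kb of an end of a gene) at 6 of 6 genes, with summed levels of 527 and 478 CPM in shIRF4 and 509 and 499 CPM in control. CPM are counts relative to the scaled library total, as described under the processing. T cell, myeloid, and epithelial or fibroblast markers had such intervals at 2 of 5 genes each, with sums between 17.3 and 23.4 CPM in any library, and CD3D, CD3G, CD2, LYZ, CSF1R and EPCAM had none. Accessibility does not measure transcription, and in bulk libraries a change in all cells cannot be told apart from a change in a share of them.

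Of the 51 intervals, 13 were higher in shIRF4, 5 were lower and 33 were not called (edgeR quasi-likelihood test, Benjamini-Hochberg adjusted p under 0.05 over 73028 intervals). Of all tested intervals 7.26% were higher, 15.5% lower and 22.8% called in either direction. Scaling by library totals alone left the member counts at 13 and 5, while the counts over all intervals became 7181 higher and 9926 lower, against 5301 and 11338 in the main test. By family, 8 of 10 intervals at the EGR genes were higher and 1 lower, against 2 higher and 1 lower of 19 at the NR4A genes and 3 higher and 3 lower of 22 at the KLF genes. The 8 EGR rises became 2 of 10 in DESeq2, where all intervals called higher were 856 of 73028, and 5 of 10 when shIRF4 replicate 1, control replicate 1 or control replicate 2 was dropped. In DESeq2 the NR4A genes had 0 calls and the KLF genes 0 higher and 3 lower; 1 NR4A rise was left without either control library, 0 NR4A falls without shIRF4 replicate 1 or control replicate 2, and 1 KLF rise without control replicate 1. The median log2 fold change was 0.60 at the EGR genes, 0.05 at the NR4A genes and -0.09 at the KLF genes, beside 0.01 over all tested intervals. Intervals of 1 gene share a locus and are not replicates, and no difference between the families was tested. Both shIRF4 libraries lay above both control libraries at 19 member intervals and below at 12; over all tested intervals these shares were 28.7% and 30.3%.

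**Figure D1:**
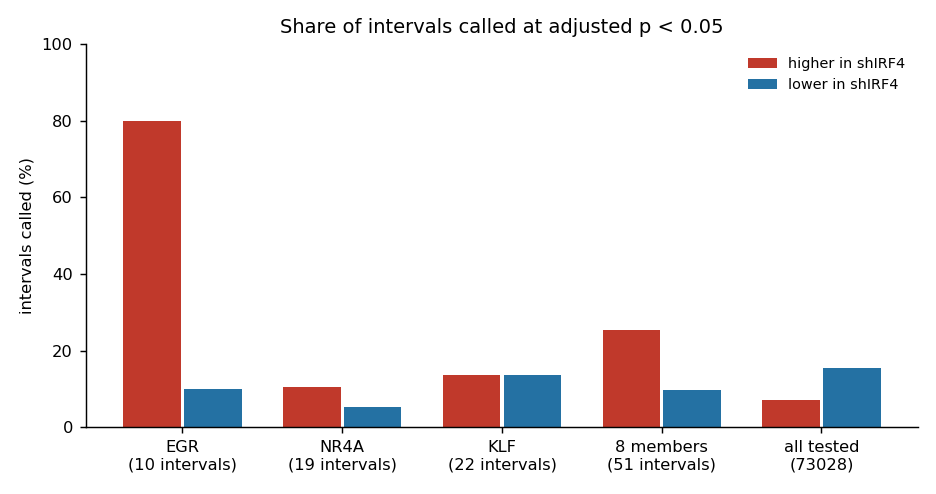
Percentage of intervals called higher (red) or lower (blue) in shIRF4 at adjusted p under 0.05, for the EGR (10 intervals), NR4A (19) and KLF (22) members, for all 51 together and for all 73028 tested intervals. The EGR bar for higher intervals stands at 80.0%, against 7.26% for all tested intervals. It stands for 8 of 10 intervals, which DESeq2 (not drawn) lowers to 2 of 10, and dropping shIRF4 replicate 1 or either control library to 5 of 10.

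The promoters of EGR1, EGR2 and NR4A3 are shown because the interval over each of them was higher in shIRF4 and because letters matching the SRF and CREB elements were found in them. Each sequence is the 250 bases before the gene start, 5′ to 3′ on the gene's strand, from RefSeq (GRCh38.p14). They are EGR1 at chr5:138465229-138465478 (plus strand), the inner start of EGR2 at chr10:62816367-62816616 (minus strand) and NR4A3 at chr9:99821635-99821884 (plus strand). Capitals mark CArG boxes, the sequence bound by SRF, and TGACG, the core of the cyclic AMP response element bound by CREB, on either strand.
EGR1: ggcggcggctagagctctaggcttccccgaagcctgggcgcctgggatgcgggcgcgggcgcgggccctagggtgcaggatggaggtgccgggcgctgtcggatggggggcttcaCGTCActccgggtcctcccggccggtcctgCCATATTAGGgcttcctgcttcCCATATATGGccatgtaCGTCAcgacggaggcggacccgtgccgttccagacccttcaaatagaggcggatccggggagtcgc
EGR2: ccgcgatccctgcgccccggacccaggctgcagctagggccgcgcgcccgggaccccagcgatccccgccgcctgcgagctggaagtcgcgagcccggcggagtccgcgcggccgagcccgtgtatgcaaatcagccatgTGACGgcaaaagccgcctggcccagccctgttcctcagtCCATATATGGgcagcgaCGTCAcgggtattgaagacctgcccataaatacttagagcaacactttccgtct
NR4A3: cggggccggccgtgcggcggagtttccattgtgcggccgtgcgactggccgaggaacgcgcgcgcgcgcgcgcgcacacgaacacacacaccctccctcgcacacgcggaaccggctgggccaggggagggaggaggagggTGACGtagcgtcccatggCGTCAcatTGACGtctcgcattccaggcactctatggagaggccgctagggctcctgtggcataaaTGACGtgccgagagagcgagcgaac
EGR1 holds 2 CArG boxes and 2 TGACG cores, EGR2 1 CArG box and 2 cores, and NR4A3 4 cores. Over the RefSeq promoter windows (250 bases before to 50 after a start), 6 of the 8 genes matched, with 9 windows, and EGR3 and NR4A2 did not. Not all 9 lay in accessible intervals. The EGR2 windows starting at 62819118 and 62818726 shared 0 of 300 bases with a member interval, and those of NR4A1 73 and 32. The remaining windows lay wholly inside an interval. A CArG box was found in 2 of the 9 member windows and in 1.3% of 34796 windows of all genes, and TGACG in 3 of 9 and in 24.5%. The longer element TGACGTCA, which contains TGACG, was in 0 of 9 and in 1.84%.

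Sequences bound by IRF4 with its partners were also searched on both strands. The composite ETS-IRF element was in 0 of the 9 windows and in 2.83% of all, and the interferon-stimulated response element in 0 of 9 and in 3.57%. The AP-1 site TGANTCA was in 0 of 9 and in 7.73%, the EGR site GCGNGGGCG in 4 of 9 and in 9.43%, the NF-kB site in 1 of 9 and in 11.3%, and the Krüppel-type core CACCC in 6 of 9 and in 59.8%. These matches describe letters in these windows only. The distal intervals described next were not searched.

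EGR1, the founding EGR factor and the one most widely used as a marker of recent signalling, was higher at all 3 of its intervals. The interval over its start and most of its body on chromosome 5 (138463700 to 138467610) stood at 114.0 and 114.1 CPM in the shIRF4 libraries and at 95.05 and 92.2 CPM in the control libraries. The groups did not overlap, and the rise was modest (0.29 in log2 units, SE 0.06, adjusted p = 0.000625, edgeR).

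The largest rise of all 51 intervals lay at the other end of EGR1 (138469219 to 138470595), where the interval reaches over the last bases of the gene into the flank. It held 10.2 and 14.7 CPM in shIRF4 against 4.03 and 4.02 CPM in control (1.56, SE 0.18, adjusted p = 1.51e-06, edgeR), a 2.96-fold higher level. Both shIRF4 libraries were well above control and differed from each other, and the value was 1.88 without shIRF4 replicate 1 and 1.34 without shIRF4 replicate 2. An interval 6041 bp upstream (138458907 to 138459969) held 14.9 and 12.2 CPM in shIRF4 and 8.22 and 8.85 CPM in control (0.70, SE 0.13, adjusted p = 0.000429, edgeR). The level was thus highest over the start and the relative change highest at the far end. The call over the start was lost in DESeq2 (0.29, adjusted p = 0.0870), while the other 2 calls held there. Among the 46 other intervals within 500 kb of EGR1, 6 were higher and 2 lower, with a median of 0.17. Over all tested intervals 7.26% were higher and 15.5% lower.

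EGR3, an EGR factor that acts with EGR2 in limiting lymphocyte activation, was likewise higher at all 3 of its intervals, all of them outside the gene on its high-coordinate side on chromosome 8. The most read one (22694896 to 22695959), 1947 bp from the gene, held 15.3 and 16.8 CPM in shIRF4 and 10.7 and 10.7 CPM in control (0.57, SE 0.12, adjusted p = 0.000873, edgeR). The interval nearest the gene (22694137 to 22694787) held 5.32 and 5.78 CPM in shIRF4 and 3.61 and 3.50 CPM in control (0.63, SE 0.19, adjusted p = 0.0207, edgeR). At both, each shIRF4 library was above each control library. The interval 7501 bp away (22700765 to 22701197) held 6.19 and 3.16 CPM in shIRF4 and 3.27 and 3.05 CPM in control (0.70, SE 0.25, adjusted p = 0.0436, edgeR), with overlapping groups. That call rested on shIRF4 replicate 1, since the value was 0.01 without it (adjusted p = 0.985); dropping control replicate 1 (0.73, adjusted p = 0.0666) or control replicate 2 (0.63, adjusted p = 0.137) also ended it. Nearest the gene the call ended when shIRF4 replicate 1 (0.71, adjusted p = 0.0567), control replicate 1 (0.65, adjusted p = 0.0969) or control replicate 2 (0.60, adjusted p = 0.140) was dropped, and none of the 3 held in DESeq2 (adjusted p between 0.0627 and 0.495). Of the 31 other intervals within 500 kb, 2 were higher and 0 lower, beside 7.26% and 15.5% of all tested intervals.

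EGR2, which is induced by antigen receptor signalling and restrains it, changed in both directions. Its gene-end interval on chromosome 10 (62815071 to 62818279), over the inner start printed above, held 75.02 and 70.2 CPM in shIRF4 and 60.2 and 62.6 CPM in control (0.25, SE 0.06, adjusted p = 0.00702, edgeR). An interval 88811 bp upstream (62907844 to 62908113) held 3.09 and 3.60 CPM in shIRF4 and 2.27 and 1.34 CPM in control (0.88, SE 0.27, adjusted p = 0.0190, edgeR). Between these, 51863 bp upstream (62870851 to 62871209), an interval fell to 4.67 and 2.84 CPM in shIRF4, against 7.80 and 8.70 CPM in control (-1.04, SE 0.19, adjusted p = 0.000289, edgeR). The groups did not overlap at any of the 3. The fourth interval, 330 bp past the gene, did not pass (0.25, 95% interval -0.09 to 0.59). The rise over the start no longer passed when shIRF4 replicate 1 (0.20, adjusted p = 0.0523) or control replicate 1 (0.22, adjusted p = 0.126) was dropped, or in DESeq2 (adjusted p = 0.265). The fall was -1.53 without shIRF4 replicate 1 and -0.83 without shIRF4 replicate 2, and was called both times. The distal rise was 0.53 without control replicate 2 and was then not called. Nor did it pass under DESeq2 (adjusted p = 0.298) or with loess offsets, a scaling that varies with abundance (0.64, adjusted p = 0.0896, edgeR). It rested on 57 and 33 reads in shIRF4 and 27 and 18 in control. The 19865 intervals with a mean under 4 CPM had a median log2 fold change of 0.11.

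**Figure D2:**
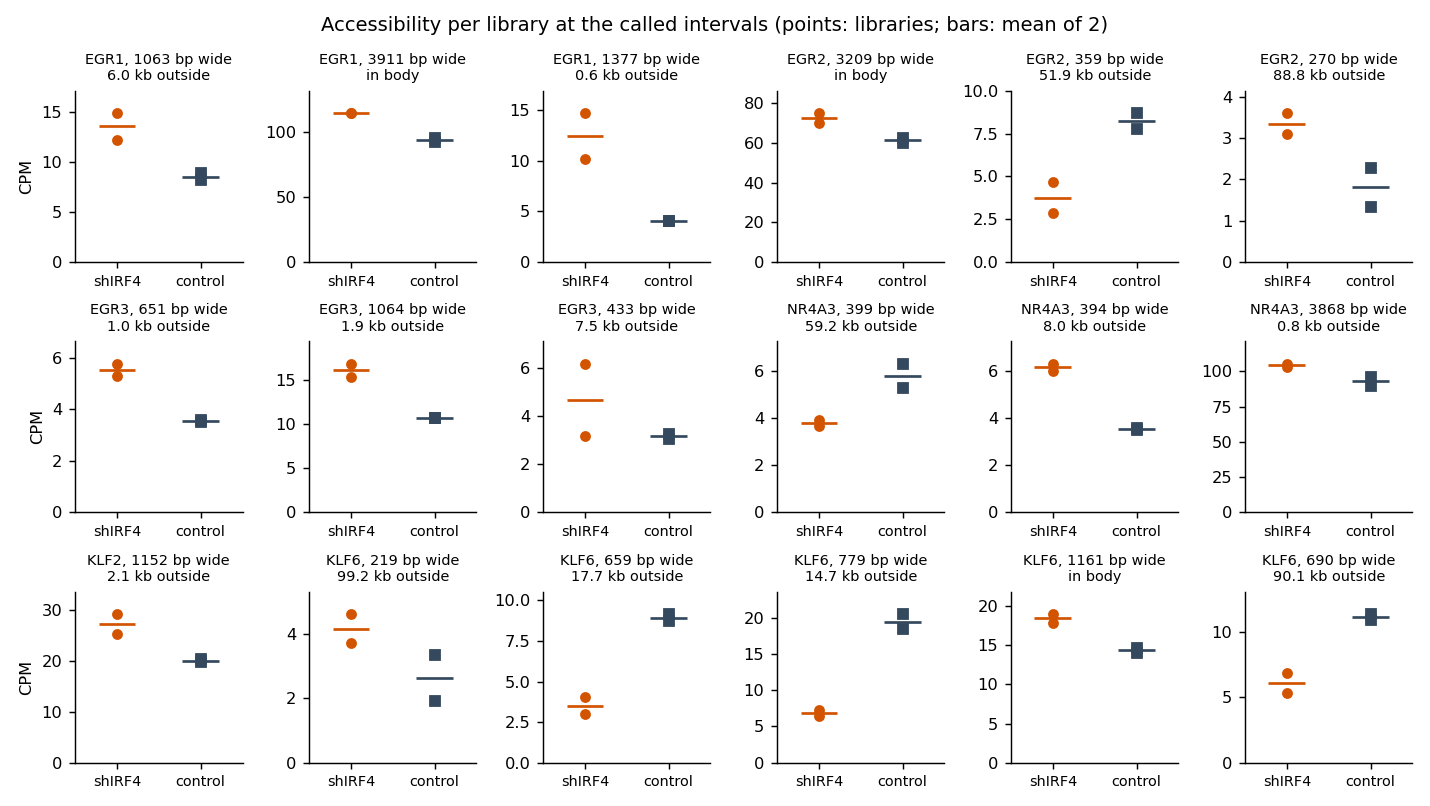
Accessibility in CPM in each library at the 18 called intervals, with shIRF4 (circles) and control (squares) side by side and bars at the mean of 2 libraries; each vertical axis starts at 0. The groups overlap only at the EGR3 interval 433 bp wide.

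NR4A1, also called Nur77 and used as a reporter of antigen receptor signalling, had 11 intervals and none was called. They covered the start, the body and both flanks, and their log2 fold changes ran from -0.27 to 0.25. The interval over the start on chromosome 12 (52022809 to 52024239) held 27.5 and 29.02 CPM in shIRF4 and 24.7 and 27.3 CPM in control (0.11, SE 0.09, 95% interval -0.07 to 0.29, adjusted p = 0.402, edgeR). The most read one, inside the gene (52050192 to 52052219), held 35.2 and 34.3 CPM in shIRF4 and 30.5 and 32.4 CPM in control (0.15, 95% interval -0.02 to 0.31, adjusted p = 0.193, edgeR). At these 2 both shIRF4 libraries were above both control libraries, by little.

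NR4A2, a nuclear receptor with roles in neurons and in activated lymphocytes, had 3 intervals and none was called. The gene-end interval on chromosome 2 (156331864 to 156335148) held 59.6 and 61.97 CPM in shIRF4 and 51.5 and 58.8 CPM in control (0.13, 95% interval -0.01 to 0.28, adjusted p = 0.189, edgeR). The most read one (156341218 to 156343599), 9687 bp away in the long noncoding gene FLJ46875, held 65.8 and 55.4 CPM in shIRF4 and 59.9 and 67.3 CPM in control (-0.06, 95% interval -0.22 to 0.10, adjusted p = 0.661, edgeR). Groups overlapped there. No difference between the NR4A genes and EGR1 was tested.

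NR4A3, the third receptor of the family, was called at 3 of 5 intervals. The interval over its start on chromosome 9 (99819140 to 99823007) held 103.1 and 105.5 CPM in shIRF4 and 96.2 and 89.9 CPM in control (0.16, SE 0.06, adjusted p = 0.0463, edgeR). An interval 8040 bp upstream (99813649 to 99814042) held 6.03 and 6.33 CPM in shIRF4 and 3.61 and 3.50 CPM in control (0.79, SE 0.19, adjusted p = 0.00342, edgeR). Further upstream, 59156 bp from the gene (99762530 to 99762928), an interval fell to 3.69 and 3.93 CPM in shIRF4, against 5.29 and 6.32 CPM in control (-0.63, SE 0.19, adjusted p = 0.0195, edgeR). Groups did not overlap at these 3, all within the long noncoding gene LOC101928438 or touching it. The intervals inside the body did not pass (-0.12 and 0.25). Over the start, dropping control replicate 1 (0.21, adjusted p = 0.100) or control replicate 2 (0.12, adjusted p = 0.465) ended the call, and the distal fall ended when shIRF4 replicate 1 (-0.56, adjusted p = 0.160) or control replicate 2 (-0.48, adjusted p = 0.258) was dropped. In DESeq2 none of the 3 passed (adjusted p between 0.128 and 0.522).

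KLF2 was called at 1 of 5 intervals. Its most read interval on chromosome 19 (16324164 to 16329738), 5575 bp wide, covers the whole gene and held 102.8 and 91.4 CPM in shIRF4 and 93.7 and 95.5 CPM in control (0.04, SE 0.06, 95% interval -0.08 to 0.17, adjusted p = 0.664, edgeR). The next one downstream (16330213 to 16331364), 2103 bp from the gene, held 29.2 and 25.3 CPM in shIRF4 and 20.3 and 19.8 CPM in control (0.46, SE 0.09, adjusted p = 0.000849, edgeR). Both shIRF4 libraries were above both control libraries there, and the groups overlapped over the gene itself. The call was lost in DESeq2 (adjusted p = 0.0804). Of the 79 other intervals within 500 kb, 7 were higher and 17 lower, with a median of -0.04, beside 7.26% and 15.5% of all tested intervals.

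KLF6 had the deepest falls, and they lay outside the gene. Downstream of it on chromosome 10, the interval 14671 bp past the end (3760936 to 3761714), in the long noncoding gene LOC105376363, fell to 6.46 and 7.31 CPM in shIRF4, against 20.5 and 18.4 CPM in control (-1.52, SE 0.12, adjusted p = 1.2e-08, edgeR), a level 2.86-fold higher in control. The interval 17671 bp past the end (3757996 to 3758654), in LOC105376361, fell to 2.99 and 4.04 CPM in shIRF4, against 8.73 and 9.15 CPM in control (-1.41, SE 0.18, adjusted p = 4.5e-06, edgeR). On the other side, 90063 bp upstream (3874928 to 3875617), a further interval fell to 5.32 and 6.87 CPM in shIRF4, against 11.3 and 10.9 CPM in control (-0.91, SE 0.15, adjusted p = 9.88e-05, edgeR). The groups stood clearly apart at all 3, and all 3 calls held in DESeq2 and with any 1 library left out.

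No interval over the KLF6 gene itself was called lower. The interval over its start (3784615 to 3786217) held 52.3 and 50.4 CPM in shIRF4 and 52.9 and 51.9 CPM in control (-0.02, SE 0.07, 95% interval -0.16 to 0.12, adjusted p = 0.840, edgeR). An interval in the body (3782463 to 3783623) held 17.9 and 19.0 CPM in shIRF4 and 14.7 and 14.1 CPM in control (0.35, SE 0.10, adjusted p = 0.0164, edgeR). Groups overlapped at the start and not in the body. A narrow interval 99241 bp downstream (3676646 to 3676864), at the margin of the assignment distance, held 4.61 and 3.71 CPM in shIRF4 and 1.93 and 3.35 CPM in control (0.68, SE 0.24, adjusted p = 0.0455, edgeR). The 3 intervals between the start of the gene and 70 kb upstream, and the 2 between the end and the downstream falls, did not pass (-0.18 to 0.37). Farther upstream, the intervals 73396 bp (-0.61, adjusted p = 0.0656, edgeR) and 88699 bp away (-0.29, adjusted p = 0.307, edgeR) did not pass either. At 73396 bp both shIRF4 libraries lay below both control libraries. In the body, dropping control replicate 1 (0.38, adjusted p = 0.0668) or control replicate 2 (0.32, adjusted p = 0.151), or using DESeq2 (adjusted p = 0.327), ended the call. Far downstream, the value was 0.48 without shIRF4 replicate 1 (adjusted p = 0.383), 0.36 without control replicate 1 (adjusted p = 0.493) and 1.147 without control replicate 2 (adjusted p = 0.00875), and DESeq2 did not call it (adjusted p = 0.446).

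**Figure D3:**
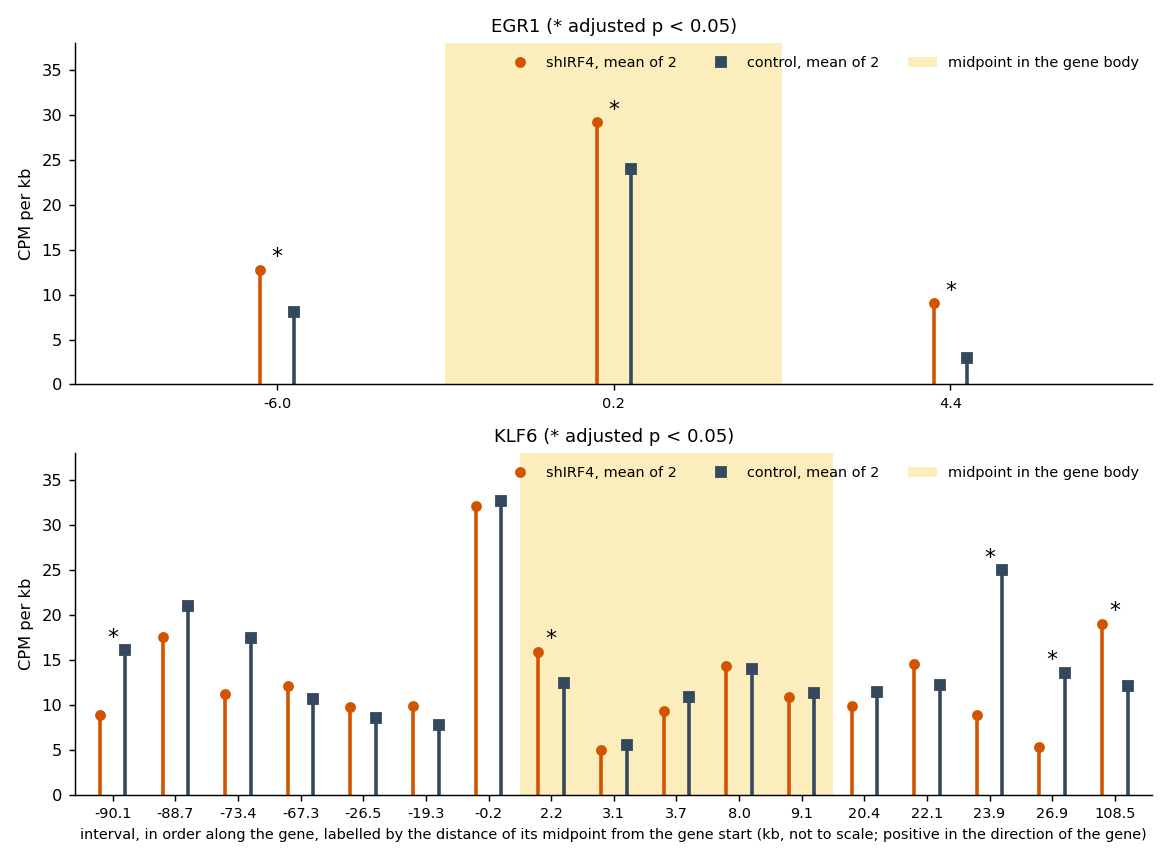
Mean CPM per kb of interval length at EGR1 (top) and KLF6 (bottom) in shIRF4 (circles) and control (squares), with intervals in order along the gene and labelled by the distance of their midpoint from the gene start in kb; asterisks mark adjusted p under 0.05. All 3 EGR1 intervals are higher in shIRF4, while at KLF6 the pair at 23.9 and 26.9 kb is lower and the start is not called.

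Intervals were also grouped by distance from the gene, a grouping chosen after the values were seen. Of the 35 member intervals in a gene body or within 10 kb of the gene, 11 were higher and 0 lower. Of the 16 more than 10 kb outside, 2 were higher and 5 lower. The near rises included all 3 of EGR1 and all 3 of EGR3, with the rest at EGR2, NR4A3, KLF2 and KLF6. The far falls included all 3 of KLF6, with the rest at EGR2 and NR4A3. Distance and gene were therefore mixed, and an effect of distance was not tested. Over all tested and assigned intervals, 6.9% were higher and 14.1% lower in the near class, and 8.39% were higher and 16.7% lower in the far class. At gene ends, 5 of 13 member intervals were higher and 0 lower, beside 4.97% higher and 6.95% lower of all 14411 tested gene-end intervals. Of the 6 member gene-end intervals at a mean of 50 to 150 CPM, those of EGR1, EGR2 and NR4A3 were higher and 0 were lower, beside 6.09% higher and 5.94% lower of all such intervals. Against a minimum change of 1.5-fold (edgeR glmTreat), 3 of the 51 passed: the rise at the far end of EGR1 and the 2 downstream falls of KLF6 (adjusted p = 0.000247, 0.000983 and 5.18e-06 for the intervals at 138469219, 3757996 and 3760936). Of all intervals, 0.639% passed that test as higher and 3.31% as lower. Other intervals within 500 kb, given above for EGR1, EGR3 and KLF2, were counted for each gene by the main test. Around EGR2, 5 of 33 were higher and 4 lower (median 0.05), and around NR4A1, 4 of 52 were higher and 5 lower (0.08). Around NR4A2, 1 of 18 was higher and 6 lower (-0.19), and around NR4A3, 2 of 20 were higher and 3 lower (0.13). Around KLF6, 4 of 16 were higher and 4 lower (0.13).

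**Figure D4:**
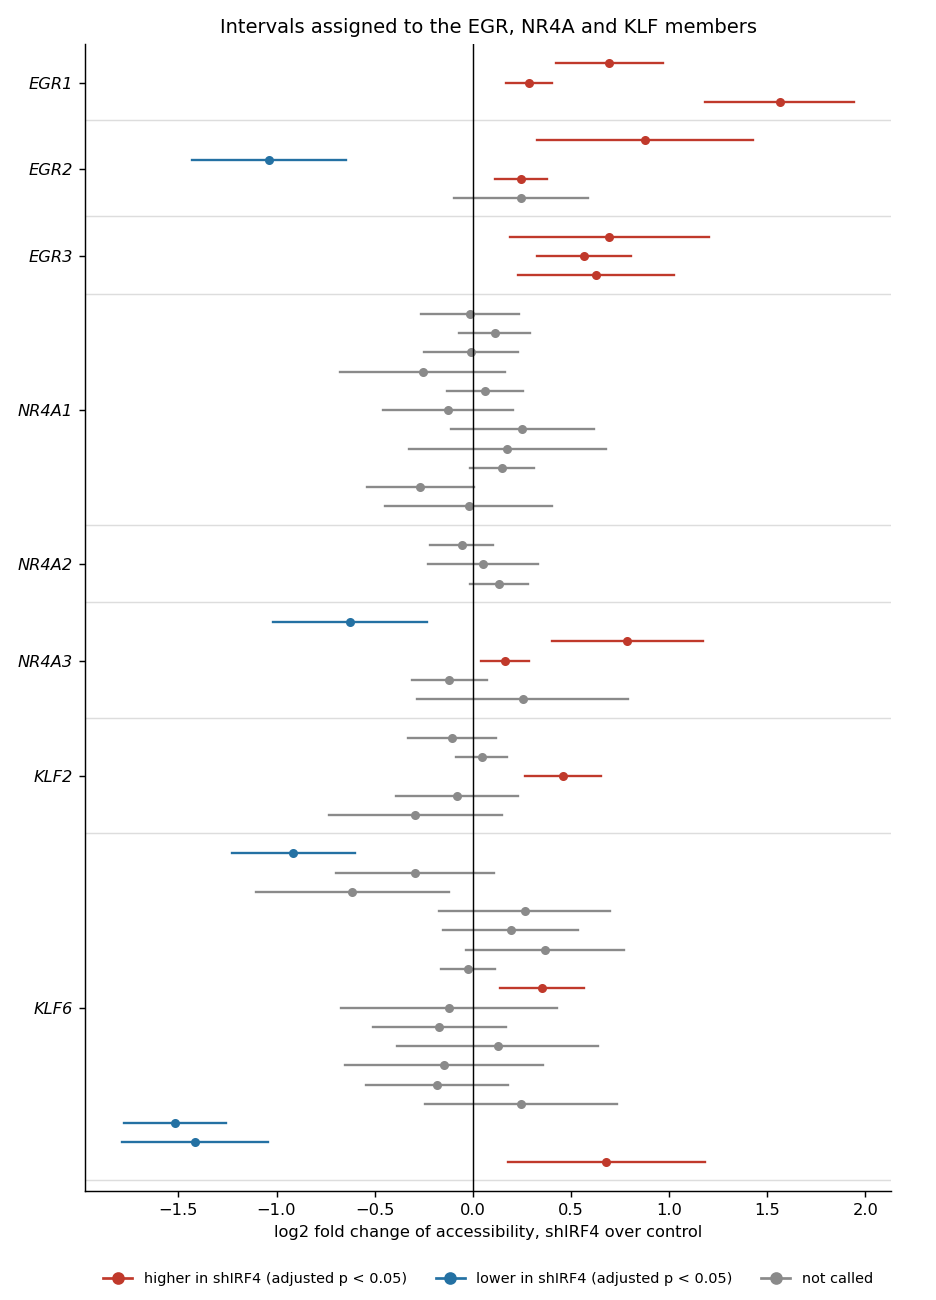
Log2 fold change (shIRF4 over control, points) with its 95% interval (lines) for the 51 intervals, by gene and in order along each locus; red and blue mark intervals higher and lower in shIRF4 and grey those not called. Red points fill the EGR1 and EGR3 rows, grey points the NR4A1 and NR4A2 rows, and the lowest points, at -1.52 and -1.41, belong to KLF6.

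Counts summed over all intervals of a gene gave 1 value per gene. EGR3 held 29.4 and 28.4 CPM in shIRF4 and 19.5 and 19.2 CPM in control (0.58 on the log2 scale, SE 0.08, adjusted p = 0.000145, edgeR over 16121 genes). EGR1 held 152.7 and 155.8 CPM in shIRF4 and 119.4 and 116.9 CPM in control (0.38, SE 0.05, adjusted p = 3.23e-05, edgeR). EGR2 held 98.7 and 91.8 CPM in shIRF4 and 84.1 and 87.7 CPM in control, at the edge of the threshold (0.15, SE 0.05, adjusted p = 0.0499, edgeR). KLF6 fell to 149.8 and 148.2 CPM in shIRF4, against 172.8 and 172.0 CPM in control (-0.21, SE 0.05, adjusted p = 0.00359, edgeR).

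The 4 other genes did not pass on summed counts. NR4A3 held 149.1 and 153.1 CPM in shIRF4 and 144.3 and 137.8 CPM in control (0.10, 95% interval -0.002 to 0.20). NR4A1 held 162.0 and 160.1 CPM in shIRF4 and 153.2 and 162.3 CPM in control (0.03, 95% interval -0.07 to 0.13). NR4A2 stood at 144.1 ± 6.89 CPM in shIRF4 and 142.6 ± 11.3 CPM in control (SD, n = 2 each; 0.02, 95% interval -0.10 to 0.14), and KLF2 at 164.9 ± 10.6 CPM in shIRF4 and 158.3 ± 0.496 CPM in control (0.06, 95% interval -0.04 to 0.17). Of all genes, 6.74% were higher and 13.4% lower. For EGR2, dropping shIRF4 replicate 1 (0.09, adjusted p = 0.321), control replicate 1 (0.12, adjusted p = 0.331) or control replicate 2 (0.18, adjusted p = 0.106), or using DESeq2 (adjusted p = 0.514), ended the call. For KLF6 it ended when control replicate 1 was dropped (-0.21, adjusted p = 0.0556), in DESeq2 (adjusted p = 0.0989) and over gene-end intervals alone (-0.06, adjusted p = 0.586). KLF2 passed as higher once shIRF4 replicate 2 was dropped (0.12, adjusted p = 0.0141), and NR4A3 passed with scaling by totals (0.15, adjusted p = 0.0343).

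**Figure D5:**
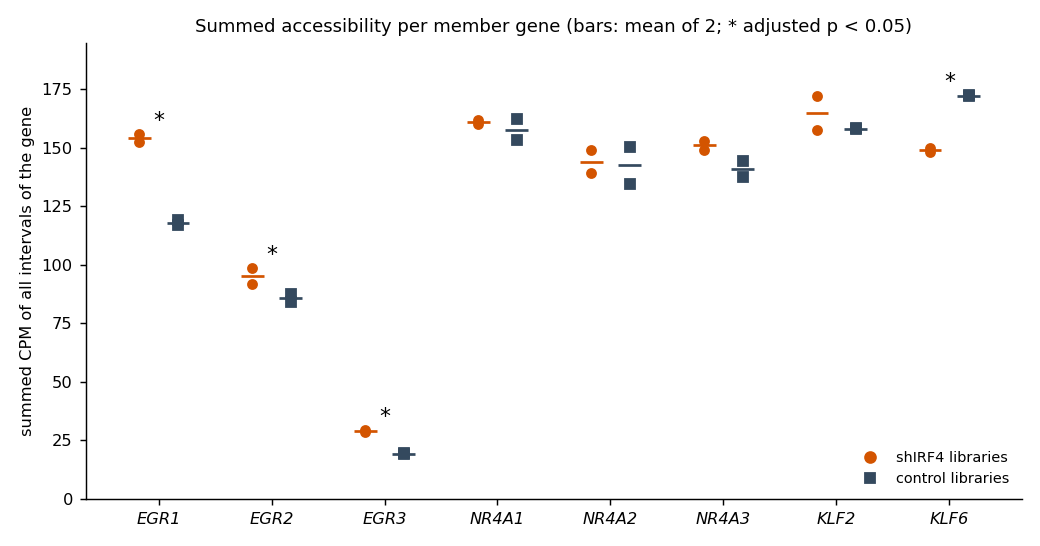
Summed CPM of all intervals assigned to each member gene in each library, shIRF4 as circles and control as squares, bars at the mean of 2 and asterisks at adjusted p under 0.05; the vertical axis starts at 0 and totals depend on how many intervals a gene has. EGR1 and EGR3 stand apart upwards, KLF6 downwards, and the NR4A1 and NR4A2 libraries overlap.

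Levels per length were compared over 1 interval per gene, the one at its start or, for EGR3 and NR4A2, at its gene end. Among these 8, that of KLF6 was the most accessible per kb and that of EGR3 the least in both groups. This order depends on the widths of the merged peaks, which ran from 651 bp at EGR3 to 5575 bp at KLF2. In plain CPM the KLF6 interval, 1603 bp wide, had a control mean of 52.4. That was below KLF2 (94.6), EGR1 (93.6), NR4A3 (93.1), EGR2 (61.4) and NR4A2 (55.1), and above NR4A1 (26.0) and EGR3 (3.55). The EGR3 interval did not reach the gene itself (midpoint 982 bp from its end). In CPM per kb, the order in shIRF4 was KLF6 (32.0 ± 0.851), EGR1 (29.2 ± 0.0181), NR4A3 (26.96 ± 0.439), EGR2 (22.6 ± 1.07), NR4A1 (19.7 ± 0.766), NR4A2 (18.5 ± 0.521), KLF2 (17.4 ± 1.44) and EGR3 (8.53 ± 0.502) (SD, n = 2). In control it was KLF6 (32.7 ± 0.481), NR4A3 (24.1 ± 1.148), EGR1 (23.9 ± 0.519), EGR2 (19.1 ± 0.533), NR4A1 (18.2 ± 1.31), KLF2 (16.97 ± 0.221), NR4A2 (16.8 ± 1.56) and EGR3 (5.46 ± 0.120) (SD, n = 2). Neighbours whose libraries overlapped were NR4A2 and KLF2 in shIRF4, and NR4A3 and EGR1, EGR2 and NR4A1, and KLF2 and NR4A2 in control. The start of EGR1 thus lay apart from that of NR4A3 in shIRF4 and level with it in control.

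The genes whose summed counts followed EGR1 most closely over the 4 libraries, by the Euclidean distance of mean-centred log2 CPM among 8245 genes with at least 3 intervals, were CNGA3 (0.0200), FADS3 (0.0213), ANGPTL6 (0.0296), C17orf67 (0.0401) and MGAT3 (0.0430). With 4 libraries in 2 groups this likeness amounts to a group difference of the same size, from 0.34 for MGAT3 to 0.39 for CNGA3.

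Related genes were counted by lists. Among 15 other EGR and KLF family genes with intervals, 10 of 77 intervals were higher (13.0%) and 14 lower (18.2%), with a median of 0.01, beside 7.26% and 15.5% of all tested intervals. Dropping shIRF4 replicate 1 left 5 higher ones, dropping control replicate 1 left 4, dropping control replicate 2 left 2 and DESeq2 left 2, and the lower ones were 8 with control replicate 2 dropped and 6 in DESeq2. KLF13, a Krüppel-like factor of lymphocytes, held 11 of the lower ones among its 29 intervals; one in its body on chromosome 15 (31352928 to 31353886) fell to 6.59 ± 0.869 CPM in shIRF4, against 13.1 ± 1.23 CPM in control (SD, n = 2 each; -1.04, SE 0.14, adjusted p = 1.09e-05, edgeR). KLF8, on chromosome X, was higher at 3 of 7 and lower at 1, with rises of 1.47 (SE 0.16) and 1.41 (SE 0.19) at 2 intervals in its body.

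The EGR corepressors NAB1 and NAB2 bind EGR proteins, and NAB2 is itself induced by them. The NAB2 interval in its body on chromosome 12 (57092817 to 57096944) held 45.5 ± 1.23 CPM in shIRF4 and 35.7 ± 0.988 CPM in control (SD, n = 2 each; 0.35, SE 0.07, adjusted p = 0.00131, edgeR). NAB1 had 2 lower intervals of 6, at -0.79 (SE 0.22) and -0.39 (SE 0.13), and 1 of them was left when any 1 of the 4 libraries was dropped, with scaling by totals or with loess offsets. The 2 lay 29767 and 26226 bp outside NAB1, and the farther one held 2.66 and 2.40 CPM in shIRF4 and 4.03 and 4.84 CPM in control. Of the 7 intervals of NAB1 and NAB2, 1 was higher (14.3%) and 2 lower (28.6%), beside 7.26% and 15.5% of all tested intervals. In DESeq2 neither gene had a called interval. No test compared these 2 genes.

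Of 171 intervals at 22 other immediate early genes, 19 were higher (11.1%) and 34 lower (19.9%), with a median of 0.02, beside 7.26% and 15.5% of all tested intervals. Dropping shIRF4 replicate 1 left 18 lower ones, control replicate 1 left 21 and control replicate 2 left 22, and DESeq2 called 7 higher and 13 lower. On summed counts 5 of these 22 genes were higher (DUSP1, DUSP2, ZFP36, ZFP36L1 and CD69) and 4 lower (IER3, TNFAIP3, ATF3 and CCL4). Of all genes, 6.74% were higher and 13.4% lower on summed counts. IER3, an early response gene that limits cell death, was lower at 4 of 4. Its interval 14473 bp away on chromosome 6 (30758647 to 30759393) fell to 5.63 ± 0.519 CPM in shIRF4, against 16.1 ± 1.25 CPM in control (SD, n = 2 each; -1.53, SE 0.14, adjusted p = 3.46e-08, edgeR). TNFAIP3 was lower at 7 of 12, and the largest falls there were -2.26 (SE 0.20) and -2.07 (SE 0.24).

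Among the inducers of these genes (SRF and its partners, CREB, MEF2 and NFAT factors), 27 of 187 intervals were higher (14.4%) and 25 lower (13.4%), with a median of 0.04, beside 7.26% and 15.5% of all tested intervals. With shIRF4 replicate 1 dropped 15 were higher, with control replicate 1 dropped 16 and with control replicate 2 dropped 14, the lower ones were 15 with shIRF4 replicate 1 or control replicate 2 dropped, and DESeq2 called 6 higher and 8 lower. On summed counts NFATC1 was higher, and NFATC2 and MEF2B were lower, beside 6.74% higher and 13.4% lower of all genes. NFATC2 was singled out after its values were seen. NFATC1 was higher at 11 of 45 and lower at 3 (summed counts 0.19, SE 0.06, adjusted p = 0.0258, edgeR), and a body interval changed by -1.30 (SE 0.24). NFATC2 was lower at 12 of 22 and higher at 2 (summed counts -0.44, SE 0.05, adjusted p = 9.11e-06, edgeR). MEF2A rose at 2 of 14 intervals, 87077 and 49820 bp outside the gene, by 1.77 (SE 0.32) and 1.09 (SE 0.17), and fell at 2. The farther one held 2.93 and 2.29 CPM in shIRF4 and only 1.09 and 0.521 CPM in control. Of the 69 intervals at 10 regulators and targets of KLF2, 6 were higher (8.70%) and 12 lower (17.4%), with a median of 0.06, close to the shares over all tested intervals. The lower ones numbered 7 without shIRF4 replicate 1 and 6 without control replicate 2, the higher ones 3 without control replicate 2, and DESeq2 called 2 in each direction. S1PR1, the receptor for lymphocyte egress, was higher at 2 of 14 and lower at 2, with a rise of 1.16 (SE 0.23) at its largest. That interval lay 99447 bp outside the gene, at the margin of the assignment distance. It held 4.29 and 4.36 CPM in shIRF4 and only 1.68 and 2.16 CPM in control. Summed counts of S1PR1 did not pass (-0.12, SE 0.05). Intervals near MAP2K5 and in CD55 changed by -1.38 (SE 0.22) and -1.07 (SE 0.20).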

How the data were processed

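ATAC-seq was measured in 4 libraries. For each, the authors deposited raw read counts per interval. The file headers name featureCounts 2.0.0, run on the 5′-most base of each read, with marked duplicates ignored, and with fractional counting of multi-mapping reads requested, although every deposited count is whole. Ignoring duplicates can cap densely read intervals, more so in a deeper library. The submitters' processing notes name hg38 as the build; the aligner and peak caller are not given in the sources used here. Two-sided tests used edgeR 4.0.16 (limma 3.58.1, R 4.3.3): filterByExpr by group kept 73028 intervals and removed 107, TMM factors lay between 0.981 and 1.03, and glmQLFit with group as the only term gave F-tests, adjusted by Benjamini and Hochberg over all intervals. Counts summed per gene were tested likewise. For intervals, the test combined the spread of each interval's own libraries (residual degrees of freedom 2) with that over all intervals (prior degrees of freedom 20.33). Each p-value and SE thus rests largely on the latter. SE is the log2 fold change divided by the square root of F. DESeq2 1.42.0, other scalings, filters, assignments and left-out libraries were alternatives. On simulated counts the test called 43% of 100 changes of 1.5-fold and 83% of 100 of 2-fold, with 8 false calls. The simulation gave both groups the same spread, whereas the shIRF4 replicates differed more than the control replicates (chi-square per degree of freedom 2.01 and 1.04). Gene positions came from a RefSeq table (GRCh38.p14), and strand from its promoter table. An interval in several bodies went to the gene with the nearest end.

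The members, lists and motifs were chosen with earlier results of these data known. Named were all called member intervals, the gene-start and the most read interval of each member, and the 3 largest called changes of each list. List counts were read beside those over all intervals, with no list test. No labels give batches. One gene of a context list is not reported here.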

Additional observations from a re-analysis of the deposited data

How the results depend on the processing

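No called member interval changed sign under any of the 12 alternatives run for each; 3 of the 18 were called under all of them (the far end of EGR1 and the 2 downstream intervals of KLF6), 10 with each library left out in turn and 6 in DESeq2. The 13 higher member intervals became 2 in DESeq2, 1 against a 1.5-fold change, 5 at gene ends only and between 7 and 13 with 1 library left out. The 5 lower ones became 2 against a 1.5-fold change, 2 within 50 kb and 0 at gene ends only. On summed counts, the 3 higher genes ranged from 2 to 4 over the left-out libraries and were 0 against a 1.5-fold change, and the 1 lower gene became 0 in DESeq2, against a 1.5-fold change and at gene ends only, and 0 to 1 with 1 library left out. Over all intervals, 11338 lower and 5301 higher became 3714 and 856 in DESeq2, 2419 and 467 against a 1.5-fold change, and 6429 to 13153 lower and 2614 to 6880 higher with 1 library left out; scaled by totals they were 9926 and 7181, with the median of all intervals moved to 0.06. Where 1 library was left out, the lone library of a group was assumed to vary like the other group. With the replicate number as a block, 11 member intervals were higher and 5 lower, and 2 genes higher and 1 lower. Deviations of same-numbered libraries correlated at -0.0273 over intervals. This value cannot decide whether the numbers pair the libraries. The control replicates hardly differed beyond random variation in the counts (1.04 per degree of freedom over all intervals), so a shared deviation would barely show. The block ended the calls at EGR3 22700765 (0.59, adjusted p = 0.0526), the start of NR4A3 (0.16, adjusted p = 0.0625) and EGR2 summed (0.15, adjusted p = 0.0688), and moved all intervals to 11402 lower and 5210 higher. Counting the control pair as 1 sample ended 4 interval calls and loess offsets 2. The 2 ended by loess offsets were the distal EGR2 rise and the far downstream KLF6 interval at 3676646 (0.62, adjusted p = 0.0662, edgeR). Counts over the lists of related genes moved by over 1.5 times in 53 values and stayed within it in 97. For intervals not called in either setting, no direction was compared. The cause of these changes was not tested.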
